A study of Mus musculus with 10 samples.

Results

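The genes described here lie around Cd47 on mouse chromosome 16. They are the 188 genes, of 45706 in the deposited expression table, whose lower coordinate lies between 39800000 and 59900000 on GRCm38, about 10 Mb to each side of Cd47. Cd47 itself and 6 genes of the same stretch (Gm15518, Tigit, Btla, Cd200, Cd96 and Rpl24) were left out by name, so 7 in all. The rule goes by position and name and holds no expression cutoff, but it was chosen with earlier results of these data known. They were read as a check of linked passenger effects: whether the genotype effect in T cells and in type 2 conventional dendritic cells (cDC2s) depends on the distance from the edited gene.

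A gene-targeted allele is inherited together with the DNA around it. Where the targeted chromosome and its control come from different strains, neighbouring genes can differ in expression for reasons that have nothing to do with the edited gene, and a selection cassette or a lost regulatory element can act on near neighbours as well. Strain differences in linked DNA are carried in every cell of the animal. A Cre recombinase limited to 1 cell type edits the target in that cell type, so an element lost with the deleted part would be lost there only. Cd47 encodes a surface protein that restrains phagocytes, and dendritic cells sense it through SIRP alpha.

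Spleen cells came from Cd47f/f mice, the controls, whose Cd47 alleles are by their name floxed, and from Cd47ΔT mice, whose name denotes a deletion of Cd47 limited to T cells. If the names hold, both genotypes share the floxed chromosome and differ in the deletion and in whatever carries the recombinase. The age of the mice, the Cre line, the deleted exons, the strain of the targeted cells and whether each library is 1 mouse are all not given in the sources at hand. The p-values therefore measure the spread between libraries, which may be technical. There were 2 T cell libraries per genotype (RNeasy mini, TruSeq stranded mRNA) and 3 cDC2 libraries per genotype (RNeasy micro, SMART-seq stranded), so cell type and kit cannot be told apart in levels. Values are TPM, transcript abundances corrected for gene length and scaled to a fixed total, from which sequencing depth cannot be read, so depth is unknown. Because these are bulk samples, fewer cells of a type and less RNA per cell cannot be told apart.

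The targeted gene was read first. Cd47 (chromosome 16, 49800533 to 49915010, plus strand) read 137.71 and 232.56 TPM in control T cells, against 40.38 and 51.68 TPM in Cd47ΔT T cells. Its log2 fold change was -1.95 ± 0.26 (SE; limma adjusted p = 0.0112), while its level in cDC2s was 149 ± 11.5 TPM for controls and 148 ± 12.1 TPM for Cd47ΔT mice (SD, n = 3). T cell markers (Cd3d, Cd3e, Cd3g, Cd247, Lck and Lat) summed to 3299 to 3623 TPM in T cell libraries and to 0.270 to 6.88 TPM in cDC2 libraries, where Cd3g was at 0. The 7 cDC2 markers summed to 984 to 1355 TPM in cDC2 libraries. In T cell libraries 6 of them were tested and 5 were higher in Cd47ΔT mice (sums of 9.85 and 13.0 TPM in controls, 44.7 and 67.3 TPM in Cd47ΔT), as were 6 of 6 macrophage markers (16 and 20.5 TPM, then 132 and 216 TPM). Also higher were 4 of 4 monocyte markers (625 and 803 TPM, then 1942 and 2145 TPM; 1 of them, Ly6c2, is also a gene of memory T cells), 3 of 3 plasma cell markers (61.3 to 71.3 TPM, then 344 to 376 TPM), 4 of 4 B cell, 3 of 3 cDC1, 3 of 4 NK cell, 3 of 4 basophil, 2 of 3 neutrophil, 2 of 4 plasmacytoid and 2 of 2 erythroid markers. The part of such cells in the results on T cells was not tested.

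The following sequences show what lies directly upstream of the neighbours on which the results turn: the nearest tested neighbour (Ift57) and 3 of the 5 genes that differed in T cells. They are read 5′ to 3′ on the gene's own strand from the RefSeq start windows of GRCm38.p6 and end before the first base that RefSeq or GENCODE M21 annotates as transcribed. Capitals mark matches, on either strand, to 4 short motifs: CCGGAAG (ETS factors), CCAAT (NF-Y), GTTGCC (a half-site of the ciliary RFX factors) and TGTGGT (RUNX factors).
Trat1, chr16:48772063-48772312, minus strand: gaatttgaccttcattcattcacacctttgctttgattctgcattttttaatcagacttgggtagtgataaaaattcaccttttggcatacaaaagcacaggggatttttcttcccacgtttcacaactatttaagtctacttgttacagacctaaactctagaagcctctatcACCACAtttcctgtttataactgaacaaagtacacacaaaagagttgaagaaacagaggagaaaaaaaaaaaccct
Ift57, chr16:49699044-49699232, plus strand: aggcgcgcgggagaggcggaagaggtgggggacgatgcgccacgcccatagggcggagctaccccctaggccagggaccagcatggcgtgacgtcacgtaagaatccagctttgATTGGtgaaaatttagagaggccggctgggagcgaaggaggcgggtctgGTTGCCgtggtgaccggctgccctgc
Nxpe3, chr16:55895286-55895529, minus strand: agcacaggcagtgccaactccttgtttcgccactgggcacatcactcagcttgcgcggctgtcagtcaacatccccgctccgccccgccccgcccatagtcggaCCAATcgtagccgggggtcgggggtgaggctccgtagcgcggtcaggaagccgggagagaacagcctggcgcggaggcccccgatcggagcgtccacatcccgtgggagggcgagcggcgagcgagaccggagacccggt
Cldnd1, chr16:58727660-58727909, plus strand: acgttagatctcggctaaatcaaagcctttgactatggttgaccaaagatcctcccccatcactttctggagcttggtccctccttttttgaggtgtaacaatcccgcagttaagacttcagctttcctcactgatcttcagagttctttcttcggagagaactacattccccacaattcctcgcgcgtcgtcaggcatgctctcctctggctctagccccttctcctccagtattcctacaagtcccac
The capitals in Trat1 are 1 RUNX match on the reverse strand, 76 to 71 bases before the end of the stretch. Ift57 held 1 NF-Y match (75 to 71 bases before the end) and 1 RFX half-site (26 to 21 bases before the end), Nxpe3 held 1 NF-Y match and Cldnd1 held none of the 4. Over the 250 bases upstream of the RefSeq starts, 17.8% of 45 tested neighbours with a window held the ETS letters, against 6.91% of all 32851 windows. For NF-Y the shares were 37.8% and 33.8%, for the RFX half-site 6.67% and 10.4%, and for RUNX 17.8% and 14.0%. The neighbours counted here had passed the filter on expression, whereas the 32851 windows cover 27025 genes with no such filter. The shares therefore compare unlike sets, and the part of expression in the ETS difference was not tested. All these matches describe letters, and no binding was measured.

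Most of the neighbourhood was silent in both cell types. Of the 188 genes, 98 were at 0 TPM in all 10 libraries, 32 were above 0 but under 1 TPM in all, and 58 reached 1 TPM in some library. The olfactory receptor genes of the stretch, smell receptors of the nose, account for 25 of the 188, and 0 of them could be tested. A gene was tested where it reached 1 TPM in at least 2 T cell or 3 cDC2 libraries, which left 49 genes in T cells and 45 in cDC2s, 42 in both and 52 in either, 48 of these protein-coding. The remaining 136 were tested in neither cell type. With no filter on low values 85 of the 188 were tested in T cells and 69 in cDC2s, with 0 calls in each. Distances run from a gene's lower coordinate to the nearest edge of Cd47. Of the 52, 7 lie under 2 Mb away, 9 from 2 to 5 Mb and 36 from 5 to 10 Mb.

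In T cells 5 of the 49 neighbours differed between genotypes. Cip2a, Alcam and Cldnd1 rose and Trat1 and Nxpe3 fell. That is 10.2% of the neighbours, beside 9.37% of all 12453 genes tested (limma on log2(TPM + 1), adjusted p under 0.05). Higher calls made up 6.12% of the neighbours and 8.5% of all genes, and lower calls 4.08% and 0.875%, from 3 and 2 neighbours. At an unadjusted p under 0.05 there were 10 of 49 neighbours (20.4%, beside 21.6% of all genes). The genotypes did not overlap in 22 of 49 (44.9%, beside 48.9%). The median log2 fold change of the neighbours was 0.10, against 0.10 for all tested genes and 0.11 for the 324 other tested genes of chromosome 16, of which 8.02% were called. That set, here and for cDC2s, lacks Cd47 but keeps the other genes left out by name where they were tested, such as Gm15518 in T cells. Under quantile scaling the median of all genes moved to -0.0789 and that of the neighbours to -0.15, with 5 calls. With no filter on low values the 5 genes had adjusted p from 0.0806 to 0.123 and none was called, as 15 of 20437 genes were in all. Leaving out 1 library gave 2 calls without Cd47ΔT library 1, 3 without Cd47ΔT library 2 and 10 without control library 2.

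In cDC2s 0 of the 45 neighbours passed, where 0.63% of all 12058 genes did. At an unadjusted p under 0.05 there were 9 of 45 (20.0%, beside 13.4%), and the genotypes did not overlap in 9 of 45 (20.0%, beside 19.9%). The neighbours lay lower on the whole, with a median log2 fold change of -0.18 against -0.0729 for all tested genes and -0.0642 for the other genes of chromosome 16. Of the 45, 32 had a negative value, beside 7321 of all 12058 genes, so most of the table was negative too. The 95% interval of the fold change lay within 1 log2 unit of 0 on both sides for 30 of 45 neighbours in cDC2s and for 33 of 49 in T cells, so for these a change of 1 log2 unit lay outside the interval.

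**Figure D1:**
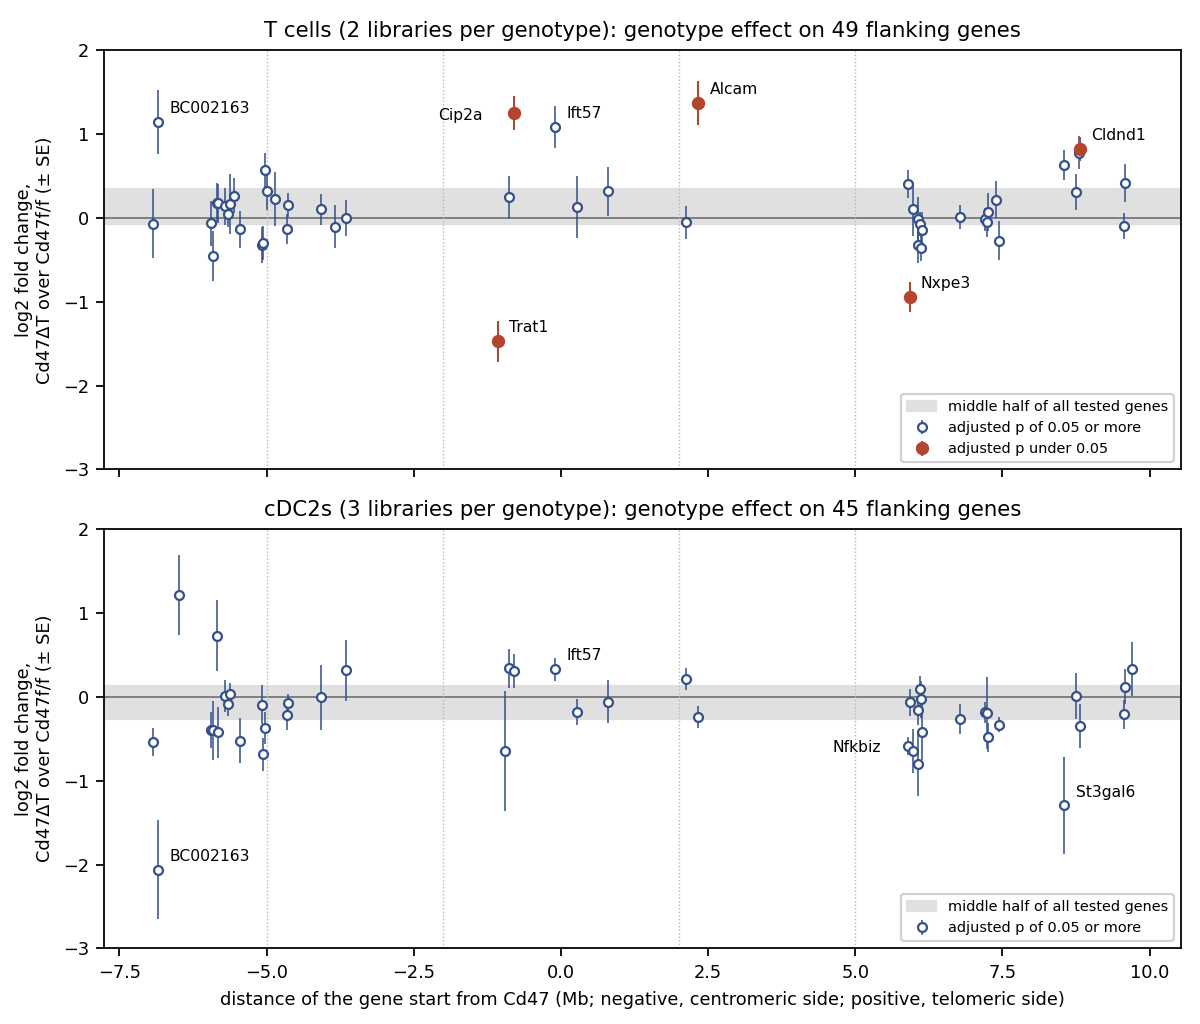
Log2 fold change of Cd47ΔT over Cd47f/f (± SE) for each tested neighbour against its distance from Cd47 in Mb, with T cells above and cDC2s below; filled points have a limma adjusted p under 0.05 and the grey band holds the middle 50% of all tested genes. The 5 filled points in T cells are spread from 0.81 to 8.81 Mb on both sides, and the cDC2 panel has none.

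Sorted by distance, called genes in T cells were 2 of 6 under 2 Mb (33.3%), 1 of 9 from 2 to 5 Mb (11.1%) and 2 of 34 from 5 to 10 Mb (5.88%). The median size of the log2 fold change was 0.70, 0.14 and 0.20 in these bands, against 0.19 over all tested genes. The 2 called genes of the near band, Trat1 and Cip2a, went in opposite directions, and both lie on the centromeric side. The near band holds 6 genes, and no test over genes was made. Its count was 1 without Cd47ΔT library 1, 3 without either control library and 0 with no filter. In cDC2s the counts were 0 of 6, 0 of 6 and 0 of 33, with median log2 fold changes of 0.12, -0.0384 and -0.26, the lowest median being that of the far band. Across genes, Spearman's rho between distance and the size of the fold change was -0.0796 in T cells (n = 49) and 0.15 in cDC2s (n = 45). With the sign of the fold change kept, rho was -0.0521 in T cells and -0.21 in cDC2s. These values describe genes that share the same libraries.

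Ift57, a subunit of the intraflagellar transport particle that builds cilia, is the nearest tested neighbour. It starts 0.10 Mb on the centromeric side of Cd47 (49699233 to 49765126, plus strand). It read 13.02 and 7.79 TPM in control and 22.75 and 22.32 TPM in Cd47ΔT T cells. In cDC2s it read 28.14, 22.40 and 24.81 TPM in controls and 34.14, 28.73 and 32.26 TPM in Cd47ΔT mice. All Cd47ΔT libraries lay above all control libraries of the same cell type, although the cDC2 groups were separated by less than 1 TPM. The log2 fold change was 1.08 ± 0.25 in T cells (limma adjusted p = 0.0503) and 0.33 ± 0.14 in cDC2s (adjusted p = 0.368), and neither passed. Its adjusted p in T cells was under 0.05 in 4 of 13 alternatives, among them 0.0171 without control library 1 and 0.0300 without control library 2. The effects in the cell types differed by 0.76 (interaction adjusted p = 0.206). Gm15518, an antisense gene left out of the list, overlaps the end of Ift57 by 6551 bases. Its lower coordinate lies 0.0420 Mb from Cd47. Being on the minus strand, it starts at its upper coordinate, 49798870, right before the Cd47 edge at 49800533. Gm15518 read 1.73 and 0.210 TPM in control and 7.76 and 7.79 TPM in Cd47ΔT T cells. It rose by 2.27 ± 0.39 on the log2 scale (adjusted p = 0.0212), a call that the counts of neighbours above leave out. In cDC2s it stood at 0.330 TPM in 1 control library and at 0 in the other 5. Whether the counting used strand is not stated in the sources at hand, so reads of the shared stretch cannot be assigned, and their part in the Ift57 values was not tested.

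Cip2a and Dzip3 start 20 bases apart in opposite directions, on the centromeric side. Cip2a (48994185 to 49019709), an inhibitor of the phosphatase PP2A that is active in dividing cells, rose in T cells. It read 2.98 and 3.17 TPM in control and 8.81 and 8.59 TPM in Cd47ΔT T cells (log2 fold change 1.25 ± 0.20, limma adjusted p = 0.0172). In cDC2s it read 13.65, 9.91 and 13.76 TPM, then 12.92, 15.46 and 18.41 TPM, groups that overlap (0.30 ± 0.20, adjusted p = 0.577). The T cell call ended without Cd47ΔT library 1 (adjusted p = 0.0534). Dzip3, a ubiquitin ligase gene read from the same start region, stood at 3.51 and 5.71 TPM in control and 5.28 and 5.76 TPM in Cd47ΔT T cells, also overlapping. Its log2 fold change was 0.24 ± 0.26 in T cells (adjusted p = 0.717), with a sign that turned under quantile scaling, and 0.34 ± 0.24 in cDC2s (adjusted p = 0.597). Beside Cip2a, 23 of 24 cell cycle genes of a list that does not hold it were higher in the Cd47ΔT T cells, their sum going from 349.6 and 454 TPM to 1052 and 1174 TPM. In cDC2s 0 of the 24 passed. The part of cycling cells in the Cip2a values was not tested.

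Trat1 (48730774 to 48772021, minus strand), 1.07 Mb from Cd47, encodes a transmembrane adaptor of the T cell receptor complex. It read 54.73 and 71.99 TPM in control and 27.31 and 17.65 TPM in Cd47ΔT T cells, and 0 in all 6 cDC2 libraries. The T cell genotypes did not overlap, and the gene fell by 1.47 on the log2 scale (SE 0.24, limma adjusted p = 0.0184). The sum of the T cell markers overlapped between the same genotypes. Because Trat1 is silent in cDC2s, these cells give no reading of a genotype effect there.

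The other tested genes under 2 Mb did not pass. Bbx, a minus strand gene of an HMG box transcription factor, has its lower coordinate 0.28 Mb away on the telomeric side. Its start, at 50432390, lies farther out. It read 6.39 and 14.87 TPM in control and 10 and 11.75 TPM in Cd47ΔT T cells (log2 fold change 0.13 ± 0.37, interval -0.76 to 1.02). The Cd47ΔT libraries lay between the controls, and the sign was negative with quantile or median-of-ratios scaling. In cDC2s Bbx had a log2 fold change of -0.18 ± 0.15. Dubr, a long non-coding RNA gene 0.80 Mb away, gave 0.32 ± 0.29 in T cells and -0.0573 ± 0.26 in cDC2s, the latter with a sign that turned under 3 other scalings. Retnla, the gene of a resistin-like protein of alternatively activated macrophages, was at 0 TPM in all T cell libraries. In cDC2s it read 0.350, 1.55 and 4.05 TPM in controls and 0, 0 and 3.56 TPM in Cd47ΔT mice, groups that overlap.

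**Figure D2:**
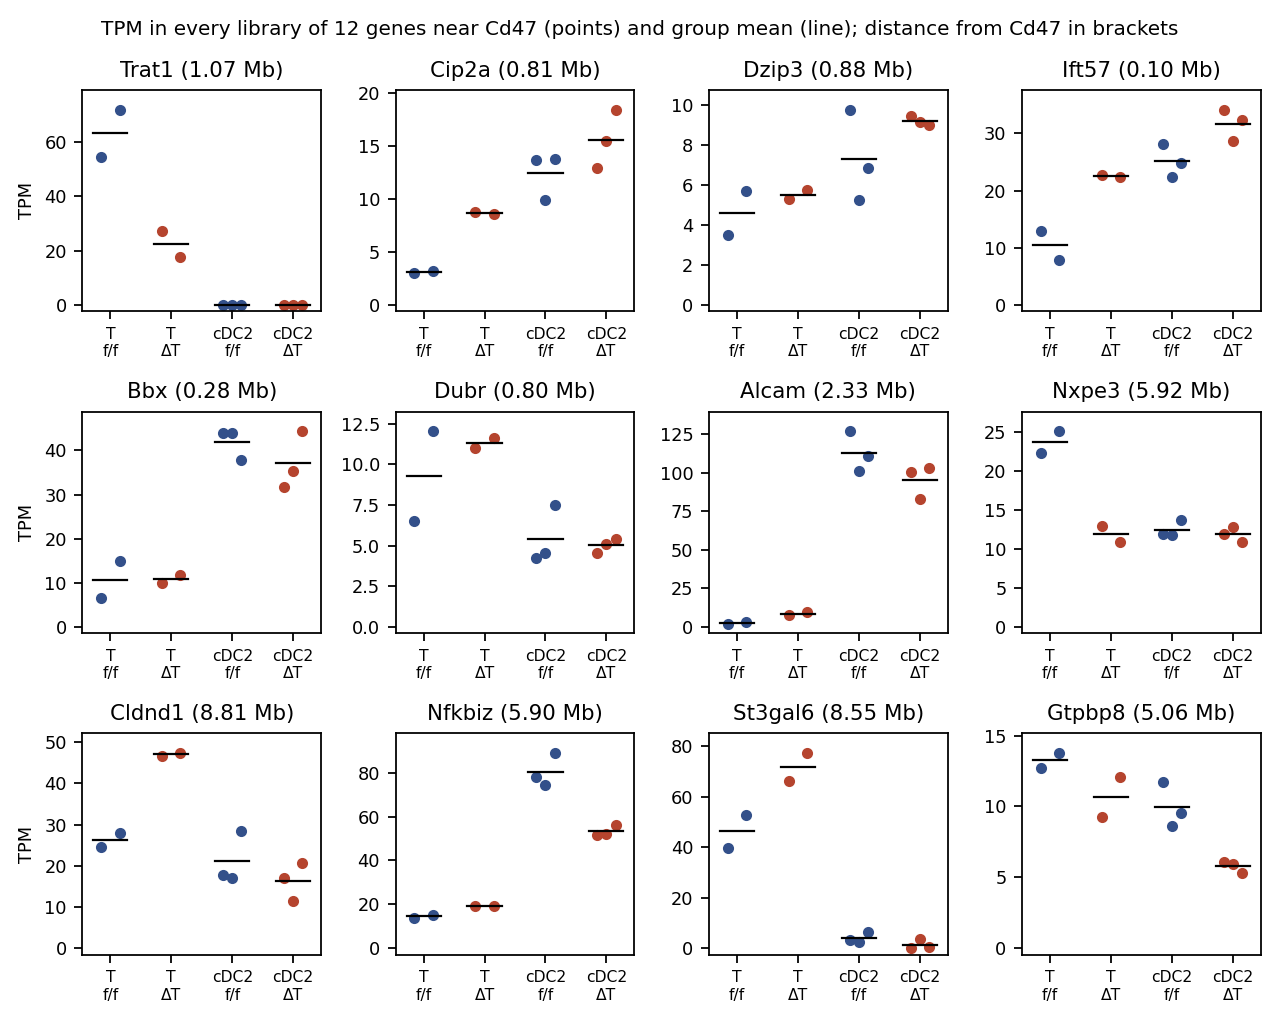
TPM in every library (points; blue Cd47f/f, red Cd47ΔT) with group means (lines) for 12 neighbours, with the distance from Cd47 in brackets; each panel has its own axis from 0. Ift57 is higher in all Cd47ΔT libraries of both cell types, Trat1 is at 0 in cDC2s, and Nfkbiz is higher in Cd47ΔT T cells and lower in Cd47ΔT cDC2s without overlap.

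Among the signalling and adhesion genes, 1 of 11 rose (Alcam) and 1 of 11 fell (Trat1) in T cells, with a median log2 fold change of 0.32. Of all genes tested in T cells, 8.5% rose and 0.875% fell. In cDC2s 0 of 6 passed (median -0.45), beside 0.63% of all genes. Alcam (52248996 to 52454074, minus strand), an adhesion molecule that binds CD6 on T cells, lies 2.33 Mb away. It read 2.01 and 3.28 TPM in control and 7.40 and 9.26 TPM in Cd47ΔT T cells (log2 fold change 1.37 ± 0.26, limma adjusted p = 0.0278). The call ended without control library 1 (adjusted p = 0.0572) and without Cd47ΔT library 2 (0.0588). In cDC2s Alcam was far higher, at 126.97, 100.84 and 110.79 TPM in controls and 100.57, 82.72 and 103.03 TPM in Cd47ΔT mice, groups that overlap (-0.24 ± 0.13, adjusted p = 0.484). The genotype effect was 1.61 ± 0.27 higher in T cells than in cDC2s (interaction adjusted p = 0.00438, under 0.05 in all 19 alternatives). Alcam is thus a gene of low level in T cells and high level in cDC2s, and the marker sums of cDC2s, macrophages and the other cell types given above were higher in the same Cd47ΔT T cell libraries. Their part in the Alcam values was not tested.

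Several lymphocyte genes of the stretch did not pass. Gpr15, a homing receptor for the large intestine, read 5.08 and 5.87 TPM in control and 10 and 10.14 TPM in Cd47ΔT T cells (log2 fold change 0.78 ± 0.20, limma adjusted p = 0.0645) and 0 in all cDC2 libraries. St3gal6, a sialyltransferase gene, read 39.66 and 52.90 TPM, then 66.26 and 77.32 TPM (0.63 ± 0.18, adjusted p = 0.0873). Both were separated between genotypes in T cells, as were 48.9% of all genes tested there. In cDC2s St3gal6 read 3.40, 2.49 and 6.32 TPM in controls and 0.10, 3.76 and 0.45 TPM in Cd47ΔT mice. These cDC2 groups overlap (-1.30 ± 0.57, limma adjusted p = 0.388). Cblb, a ubiquitin ligase that restrains T cell activation and lies 2.12 Mb away, read 28.33 and 40.65 TPM in control and 31.08 and 34.28 TPM in Cd47ΔT T cells, with both Cd47ΔT libraries between the controls (-0.0551 ± 0.20). In cDC2s it read 20.06, 20.04 and 20.02 TPM, then 22.86, 25.40 and 21.85 TPM, without overlap and without passing (0.21 ± 0.13, adjusted p = 0.548). Sidt1, a transmembrane protein linked to RNA transport, read 82.61 and 126.66 TPM in control and 116.95 and 129.22 TPM in Cd47ΔT T cells and was at most 0.220 TPM in cDC2s. Cd200r1, an inhibitory receptor of myeloid cells, had a log2 fold change of 0.56 ± 0.21 in T cells (adjusted p = 0.173) and -0.37 ± 0.19 in cDC2s.

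Nfkbiz and Nxpe3 are next to each other, about 5.9 Mb from Cd47 on the telomeric side, and differed in pattern. Nfkbiz (55811375 to 55838899) encodes a nuclear IκB protein that shapes NF-κB target genes. It read 13.65 and 15.32 TPM in control and 19.43 and 19.41 TPM in Cd47ΔT T cells (log2 fold change 0.40 ± 0.17, limma adjusted p = 0.236). In cDC2s it read 78.12, 74.31 and 89.05 TPM in controls and 51.65, 51.92 and 56.10 TPM in Cd47ΔT mice (-0.58 ± 0.11, adjusted p = 0.0753). The genotypes separated in both cell types, in opposite directions, and neither effect passed alone, while their difference of 0.99 ± 0.20 did (interaction adjusted p = 0.0118). That call ended without Cd47ΔT T cell library 1 (adjusted p = 0.0803) or 2 (0.0864). Nxpe3 (55839953 to 55895285) read 22.29 and 25.13 TPM in control and 12.95 and 10.85 TPM in Cd47ΔT T cells and fell by 0.94 on the log2 scale (SE 0.18, adjusted p = 0.0285). In cDC2s it stood at 11.90, 11.80 and 13.74 TPM, then 11.92, 12.85 and 10.85 TPM, which overlap (-0.0663 ± 0.16). The Nxpe3 call ended without Cd47ΔT library 1 (adjusted p = 0.0659) or 2 (0.267), and its effects in the cell types differed by -0.87 (interaction adjusted p = 0.0750).

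In a list drawn up for vesicles, autophagy and the lysosome, only Cldnd1 rose in T cells (1 of 6, beside 8.5% of all genes). Of the same list 0 of 6 passed in cDC2s (beside 0.63%). Cldnd1 (58727910 to 58734251), a claudin-like membrane protein gene 8.81 Mb away, read 24.58 and 27.84 TPM in control and 46.61 and 47.39 TPM in Cd47ΔT T cells (log2 fold change 0.82 ± 0.14, limma adjusted p = 0.0220). In cDC2s its groups overlap, at 17.85, 17.06 and 28.37 TPM and at 16.94, 11.51 and 20.69 TPM (-0.35 ± 0.27). The T cell call ended without Cd47ΔT library 1 (adjusted p = 0.153) or 2 (0.175). Atg3, an enzyme of autophagosome formation, and Atp6v1a, a subunit of the lysosomal proton pump, gave 0.15 ± 0.14 and 0.14 ± 0.22 in T cells and -0.0715 ± 0.10 and 0.00643 ± 0.19 in cDC2s.

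Housekeeping groups of the stretch held no called gene, in groups so small that the shares of all genes called (9.37% in T cells and 0.63% in cDC2s) would give few or none. Of the transcription and chromatin genes 0 of 6 passed in either cell type (medians -0.0413 in T cells and -0.17 in cDC2s), with Zbtb11 at -0.00996 ± 0.26 and Usf3 at 0.17 ± 0.36 in T cells. Of the genes for translation, RNA and protein modification 0 of 7 passed in T cells and 0 of 6 in cDC2s, and of the mitochondrial and metabolic genes 0 of 6 and 0 of 5. Tomm70a, the import receptor of the outer mitochondrial membrane, gave -0.0186 ± 0.14 and -0.18 ± 0.13, and Naa50, an N-terminal acetyltransferase gene, 0.0448 ± 0.15 and -0.0822 ± 0.15. In the group of mitosis, centrosome and cilium genes, Cip2a was the 1 of 5 that rose in T cells, and 0 of 6 passed in cDC2s (median 0.32). Cep97 and Spice1, centriole genes beyond 5 Mb, gave 0.11 ± 0.32 and -0.14 ± 0.22 in T cells.

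In cDC2s the 5 neighbours with the smallest unadjusted p after Nfkbiz all lay beyond 5 Mb and did not pass. Gtpbp8, a mitochondrial GTP-binding protein gene 5.06 Mb away, read 11.72, 8.65 and 9.52 TPM in controls and 6.07, 5.94 and 5.33 TPM in Cd47ΔT cDC2s (log2 fold change -0.69 ± 0.20, limma adjusted p = 0.190). In T cells it read 12.73 and 13.78 TPM, then 9.26 and 12.10 TPM (-0.30 ± 0.20, adjusted p = 0.517), so the genotypes separated downward in both cell types. Gtpbp8 shares 517 bases with Nepro on the opposite strand, which leaves both values uncertain. Filip1l, the gene of a filamin-binding protein, read 390.15, 369.50 and 422.87 TPM in controls and 299.12, 326.04 and 311.96 TPM in Cd47ΔT cDC2s (-0.33 ± 0.0882, adjusted p = 0.156), and it lies wholly within Cmss1 on the opposite strand. Zbtb20, a zinc finger repressor, and Tbc1d23, a trafficking protein of the Golgi, gave -0.54 ± 0.17 (adjusted p = 0.230) and -0.48 ± 0.17 (adjusted p = 0.282). BC002163, a processed pseudogene inside Zbtb20, read 1.59 and 3.66 TPM, then 8.88 and 4.96 TPM in T cells, and 7.22, 1.18 and 7.57 TPM, then 0, 1.12 and 0 TPM in cDC2s. Its effects differed by 3.20 ± 0.82 between the cell types (interaction adjusted p = 0.0432), a call that ended in 16 of 18 alternatives. A processed pseudogene can take reads from its parent gene, so its values are uncertain.

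**Figure D3:**
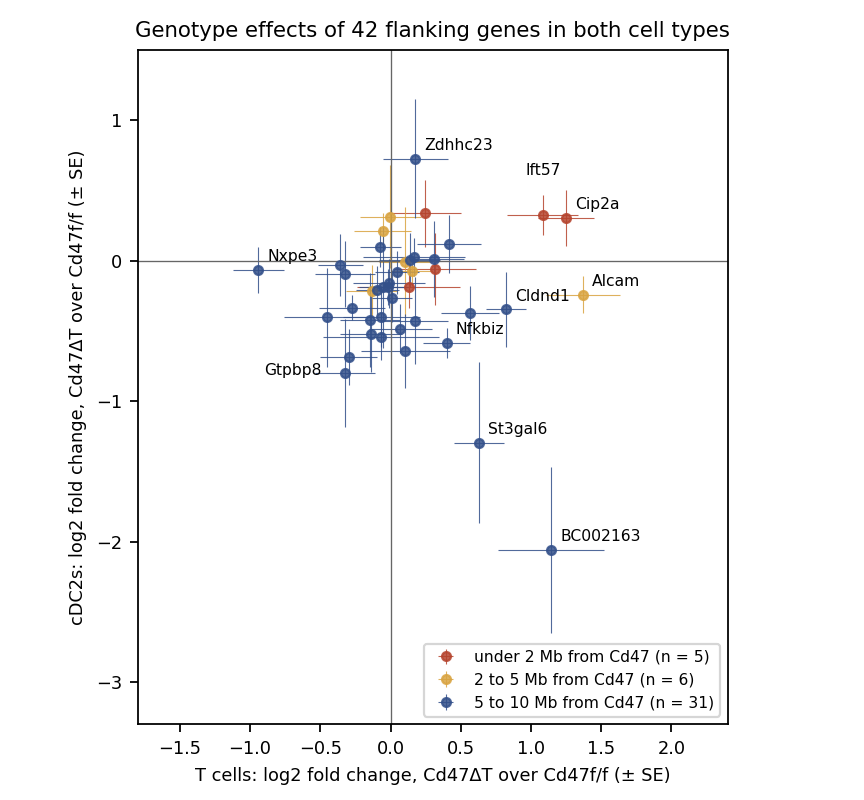
Log2 fold change in cDC2s against that in T cells (± SE) for the 42 neighbours tested in both, coloured by distance from Cd47. Cip2a and Ift57 lie to the upper right at 1.25 and 1.08 in T cells and 0.30 and 0.33 in cDC2s, while Alcam, Nfkbiz, St3gal6 and BC002163 are positive in T cells and negative in cDC2s.

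A strain difference in linked DNA would be carried in both cell types. Therefore 1 genotype effect common to T cells and cDC2s was fitted over all 10 libraries. Of the 42 neighbours tested in both, 0 passed this limma fit, beside 0.31% of all 10650 genes. At an unadjusted p under 0.05 there were 6 of 42 (14.3%, beside 12.2%). The fit averages over the libraries of both cell types, so a change in 1 cell type alone also enters its values. Cd47, at -0.0022 in cDC2s, had a value of -0.78 in it (adjusted p = 0.332). The largest increases in this fit were Cip2a (0.68, 95% interval 0.24 to 1.12, adjusted p = 0.187) and Ift57 (0.63, 0.24 to 1.02, adjusted p = 0.168), both under 1 Mb from Cd47. Their values were 1.25 and 1.08 in T cells and 0.30 and 0.33 in cDC2s. Genes farther out with an unadjusted p under 0.05 were Gtpbp8 (-0.53, adjusted p = 0.172), Filip1l (-0.31, 0.290), Nxpe3 (-0.42, 0.367) and the antisense gene Zbtb11os1 (-0.61, 0.374). Above that threshold, the lowest value was -0.78 for BC002163 (adjusted p = 0.668). Zdhhc23, 5.84 Mb away, was positive at 0.51 (adjusted p = 0.509). The median was -0.13, against -0.00115 for all genes.

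By distance, the common effect was positive in 4 of 5 neighbours under 2 Mb (median 0.30), in 5 of 6 from 2 to 5 Mb (median 0.0704) and in 8 of 31 from 5 to 10 Mb (median -0.19). Over all genes it was positive in 5299 of 10650. Under 2 Mb, all 3 centromeric neighbours (Ift57, Cip2a and Dzip3) were positive, and on the telomeric side Dubr was positive and Bbx negative. Spearman's rho between distance and the signed common effect was -0.38 (n = 42), while that with its size was 0.0788, both as descriptions over genes that share the same 10 libraries. Among these 42 neighbours the band medians thus went from positive near Cd47 to negative farther out. In every band 0 neighbours passed. Trat1 and Retnla, under 2 Mb but tested in 1 cell type only, are not among them. Both had negative values, -1.47 for Trat1 in T cells and -0.64 for Retnla in cDC2s. The far band was not negative in T cells alone (median 0.0278, 18 of 34 positive), while its median in cDC2s was -0.26.

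The genotypes were separated in the same direction in both cell types in 2 of 42 neighbours (4.76%, beside 4.68% of all genes), Ift57 upward and Gtpbp8 downward. They were separated in opposite directions in 2 of 42 (4.76%, beside 5.11%), Nfkbiz and BC002163. The fold changes had the same sign in 24 of 42 (57.1%, beside 50.0%). The effect itself differed between the cell types in 3 of 42 (7.14%, beside 5.7%), namely Alcam, Nfkbiz and BC002163, each with the T cell effect above the cDC2 effect (5.4% of all genes). In the common fit the interval lay within 1 log2 unit of 0 for 36 of 42 neighbours, with intervals reaching a median of 0.40 to each side.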

How the data were processed

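The authors' deposited table gives TPM per Ensembl gene for 4 T cell and 6 cDC2 libraries. STAR, RSEM and DESeq2, without versions, and the build GRCm38 are named per the submitters' processing notes. TPM keep no depth, so no counting interval is given. Positions and symbols came from GENCODE M21 (45143 of 45706 identifiers matched, 563 did not), and start windows from RefSeq on GRCm38.p6 (45 of 52 tested neighbours). GENCODE places 252 genes in the stretch by the rule, and 64 of them were not analysed here.

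Each cell type was tested with limma 3.58.1 on log2(TPM + 1), a scale that understates changes of low genes, over genes reaching 1 TPM in 2 T cell or 3 cDC2 libraries (variance trend, R 4.3.3). Adjustment was by Benjamini-Hochberg over all tested genes. Common and interaction effects were fitted over genes passing both filters. The neighbours, lists and tests were chosen with earlier results of these data known. Named genes were those called (filled to 6 per comparison by the smallest unadjusted p), all tested under 2 Mb, at least 2 per role list, partners of called genes in head-to-head pairs, and Cd47. The remaining ones, such as lymphocyte genes, belong to role lists. No neighbour was at 1 TPM or more throughout 1 genotype and 0.1 TPM or less throughout the other. Alternatives covered the pseudocount, filter, scaling, variance trend, replicate block, window and each library. The steps were tested on simulated data. Python 3.11.15, pandas 2.3.3, numpy 2.4.6, scipy 1.17.1 and matplotlib 3.10.9 were used.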

Additional observations from a re-analysis of the deposited data

Results flagged for a closer look

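For 3 of 42 neighbours (7.14%, beside 5.7% of all genes) the genotype effect differed between T cells and cDC2s by limma's interaction test. The T cell effect was above the cDC2 effect by 1.61 on the log2 scale for Alcam (adjusted p = 0.00438), by 0.99 for Nfkbiz (0.0118) and by 3.20 for the pseudogene BC002163 (0.0432). In 2 of them, Nfkbiz and BC002163, the genotypes were separated without overlap in opposite directions in the cell types (4.76% of neighbours, beside 5.11% of all genes). Both counts are near the shares over all genes. The BC002163 call ended in 16 of 18 alternatives, and the limits of the Nfkbiz call are given above.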

How the results depend on the processing

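The count of neighbours called in T cells, 5, became 0 with no filter on low values, where 15 of 20437 genes passed in all, and 3 in a window of 5 Mb, which holds fewer genes. Leaving out 1 library at a time gave 2 to 10, with 10 without control library 2, 2 without Cd47ΔT library 1 and 3 without Cd47ΔT library 2. Where a T cell group keeps 1 library, its spread is taken to equal that of the other genotype. Control library 2 lay above control library 1 in 43 of 49 neighbours and in 78.1% of all genes. The count under 2 Mb, 2, became 0 with no filter and 1 to 3 without single libraries. The 5 calls had adjusted p from 0.0806 to 0.123 with no filter. The 3 differences between cell types became 1 in the window of 5 Mb and 1 to 4 without single libraries. Counts of 0 in cDC2s and in the common fit stayed 0 under each alternative run. Several of these runs could hardly give another count. In cDC2s 0 genes of the whole table passed without control library 1 and without Cd47ΔT library 1 or 3. In the common fit 1 of 10650 genes passed with the replicate block. The counts of 0 in such runs do not show that the result is stable.

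With the replicate number as a block 9 neighbours passed in T cells (2296 of all genes, against 1167), 0 in cDC2s (4 of all genes, against 76) and 0 in the common fit, and 3 differed between cell types. Ift57 then had an adjusted p of 1.07e-05 in T cells. With so few T cell libraries the block leaves little from which to estimate a gene's own spread. The T cell p-values of this fit therefore rest mostly on the spread pooled over genes. Deviations of same-numbered libraries correlated at 0.19 in T cells, with 2 pairs, and at -0.0438, 0.0591 and 0.12 in cDC2s, so the numbers were not taken as pairs; not every cDC2 library correlated best with its own number.

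Signs turned for genes that did not pass. In T cells quantile scaling gave -0.13 for Dzip3 and -0.0951 for Bbx, and median-of-ratios scaling gave -0.00906 for Bbx. Without single T cell libraries the values ran from -0.0424 to 0.53 for Dzip3, -0.42 to 0.68 for Bbx, -0.0813 to 0.71 for Dubr and -0.0427 to 0.57 for Sidt1, lowest without control library 1 and highest without control library 2. For Cblb they ran from -0.31 without control library 1 to 0.20 without control library 2. In cDC2s Dubr went to 0.00567 with quantile, 0.0101 with median-of-ratios and 0.00118 with protein-coding scaling, and from -0.19 without control library 1 to 0.16 without control library 3. The causes were not tested. Depth, unknown here, limits the low genes most.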

Other observations

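Gm22422, a small nucleolar RNA gene of the stretch, stood at 638.84 TPM in cDC2 control library 2 and at 0 in the other 9 libraries, so it was not tested. It was chosen after its values were seen.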
